A study of Mus musculus with 16 samples.

Results

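The 9 genes described in mouse liver are Hcn3, its family member Hcn2, the gene Pklr that overlaps Hcn3, and 6 genes flanking Hcn3 on chromosome 3 (Clk2, Fdps, Rusc1, Scamp3, Mtx1 and Thbs3). They were taken from the table by gene symbol, 9 of 30199 genes. Messenger RNA was sequenced from the livers of female mice aged 5 months, with 16 libraries from 16 mice and 4 mice per genotype. These were Ncoa5+/-Tip30+/- (a heterozygous deletion of each gene), Ncoa5+/- (Tip30 intact), Tip30+/- (Ncoa5 intact) and wild type. The product of Ncoa5 binds nuclear receptors and tunes their transcription, and the Tip30 gene carries the symbol Htatip2. All mice ate standard chow. The sources used here do not give the strain or the extent of the deletions. The series title names Hcn3, and they do not give how that gene was picked.

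HCN channels are cation channels that open when the membrane becomes more negative and that bind cyclic nucleotides. They are best known for pacemaker currents in heart and neurons, and Hcn3, Hcn2 and Hcn4 are members of this family. Pklr encodes the pyruvate kinase of liver and red cells, which makes the last step of glycolysis and is a classic target of the carbohydrate-responsive factor ChREBP (gene Mlxipl). Clk2 is a kinase that phosphorylates SR splicing factors, Scamp3 is a membrane protein of vesicle traffic, Mtx1 (metaxin) belongs to the mitochondrial outer membrane, and Thbs3 is a secreted thrombospondin. Fdps is the farnesyl diphosphate synthase of the cholesterol pathway, and Rusc1 is an adaptor protein first studied in neurons.

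To show how closely 3 channel genes resemble each other in the pore, the same 75 coding bases of each are given, from GENCODE M21 transcripts on GRCm38. The 15 capitals mark the codons of the ion selectivity filter.
Hcn3: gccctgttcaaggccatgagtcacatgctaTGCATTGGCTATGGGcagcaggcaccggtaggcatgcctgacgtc
Hcn2: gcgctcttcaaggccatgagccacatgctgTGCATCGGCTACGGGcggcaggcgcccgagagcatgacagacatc
Hcn4: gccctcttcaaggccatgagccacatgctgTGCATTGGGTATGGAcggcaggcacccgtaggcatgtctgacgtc
Over the whole coding sequence Hcn3 was 72.1% identical to Hcn2, and the longest run of bases that the 2 genes share exactly was 33 bases. The identity to Hcn4 was 75.8% with a longest shared run of 32 bases.

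Hcn3 (ENSMUSG00000028051) lies on the minus strand of chromosome 3 at 89146074 to 89160196 (GRCm38, GENCODE M21). Pklr (ENSMUSG00000041237) lies on the plus strand at 89136142 to 89146784, so the 3′ ends of both genes run into each other. They share 711 exon bases, 17.1% of the exon bases of Hcn3 and 22.0% of those of Pklr, and none of these bases is coding in either gene. Opposite-strand overlap also joins Mtx1 (89209081 to 89227088, minus strand) and Thbs3 (89215180 to 89226837, plus strand) over 318 exon bases. Clk2 (89164795 to 89176921) and Scamp3 (89177473 to 89182765) lie on the plus strand on the far side of Hcn3 from Pklr. Fdps (89093588 to 89101959) and Rusc1 (89083981 to 89093311) lie on the minus strand beyond Pklr, and Hcn2 lies on chromosome 10 at 79716634 to 79736108. The sources used here do not give strand marking or the counting program, so to which gene a read from the shared bases was assigned, if to any, is unknown. Fdps and Rusc1 also share 1124 and 1444 exon bases with the predicted gene Gm43738, Scamp3 shares 252 with the antisense gene Gm16069, and Mtx1 shares 759 with Gm43737.

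The Pklr promoter is shown because it holds the only carbohydrate response element found among the members. The RefSeq table (GRCm38.p6) gave promoters of 250 bases before to 50 after a start for 6 of the 9 members, and Hcn3, Fdps and Scamp3 had no entry. The window at chr3:89136373-89136672, plus strand, is that of the downstream Pklr start, and the 17 capitals mark a match to the pattern CACGNG, then 5 bases of any kind, then CNCGTG (N is any base), that begins 170 bases before the start.
Pklr: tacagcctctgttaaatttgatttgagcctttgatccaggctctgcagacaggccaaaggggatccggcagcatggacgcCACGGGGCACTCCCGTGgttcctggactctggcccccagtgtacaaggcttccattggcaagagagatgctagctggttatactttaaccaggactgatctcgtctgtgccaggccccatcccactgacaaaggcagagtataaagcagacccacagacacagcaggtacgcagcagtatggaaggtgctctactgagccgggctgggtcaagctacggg
Searched on both strands, the pattern occurred in 15 of 32851 promoters (0.0457%), which belong to 14 genes. The shorter E-box CACGTG occurred in 7.15% of promoters, among them those of Clk2 and, at 1 of its 2 starts, Rusc1. Of the 14 genes 6 were tested, Pklr among them, and none of these passed in a difference from wild type in any genotype by limma. A match is a description of letters and not a measured binding site.

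Libraries held 24740706 to 31987259 reads assigned to genes in Ncoa5+/-Tip30+/- livers, 26262744 to 28895680 in Ncoa5+/-, 30574997 to 35978055 in Tip30+/- and 26058724 to 37939978 in wild type. Values are normalized counts, that is reads divided by a size factor per library. Htatip2 checked the Tip30 labels, with 977 ± 104 normalized counts in Ncoa5+/-Tip30+/- livers, 2467 ± 358 in Ncoa5+/-, 781 ± 139 in Tip30+/- and 2058 ± 179 in wild type (SD, n = 4 each). Ncoa5 did not check the Ncoa5 labels: it stood at 391 ± 23.5 normalized counts in Ncoa5+/-Tip30+/- livers, 381 ± 35.1 in Ncoa5+/- and 426 ± 42.1 in wild type, and neither difference passed. There were 4 libraries that stood apart in Zhx2, which encodes a transcriptional repressor: wild type 1 and 2 and Ncoa5+/- 1 and 4 held 8.77 to 26.3 normalized counts of it, against 167 to 438 in the other 12. Fits without these 4 kept only wild type 3 and 4 and Ncoa5+/- 2 and 3 in those groups. Whether a call lost there went with Zhx2 or with fewer livers was not tested. The 6 hepatocyte genes (Alb, Apoa1, Ttr, Cps1, Apob and Hnf4a) were detected in all livers, with summed levels of 1958000 to 2599940 normalized counts in Ncoa5+/-Tip30+/- livers, 2066850 to 2825520 in Ncoa5+/-, 2581530 to 3024990 in Tip30+/- and 2022590 to 3041040 in wild type. Most of each sum was Alb, so the sums say little about the other genes. Cps1 held 47654 to 100513 in Ncoa5+/-Tip30+/- livers and 90084 to 168796 in wild type. Ttr held 172003 to 243713 and 142418 to 214829 in the same order. None of the 6 was called against wild type by limma. In a piece of whole liver, fewer cells of a type and less RNA per cell cannot be told apart.

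All 9 members had a mean of at least 10 normalized counts and were tested. Per kilobase of exon and averaged over 16 livers, Pklr stood highest at 2747 normalized counts per kb, above 96.2% of the 15263 tested genes. Scamp3 followed at 457 and Hcn3 at 245, above 73.8% of tested genes. Mtx1 stood at 191, Clk2 at 85.6 and Fdps at 56.6 normalized counts per kb. Rusc1 (7.42), Hcn2 (6.13) and Thbs3 (3.39 normalized counts per kb) were near the low end of tested genes. Hcn3 also spanned the widest range among the members, 8.15-fold between its highest and lowest liver, against 1.48-fold for Scamp3.

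Hcn3 was higher in all 12 heterozygous livers than in any wild-type liver, and highest in the livers that carry both deletions. It stood at 1275, 1754, 2135 and 1990 normalized counts in Ncoa5+/-Tip30+/- livers. Ncoa5+/- livers held 674, 1117, 890 and 498, and Tip30+/- livers 1155, 1121, 1224 and 1047 normalized counts. Wild-type livers held 440, 262, 271 and 423. Every double heterozygote lay above every Ncoa5+/- and every Tip30+/- liver, while the lowest Ncoa5+/- liver, at 498, was close to the highest wild-type liver, at 440. The Tip30+/- livers were tight, with a coefficient of variation of 6.49%, against 33.8% among Ncoa5+/- livers, and the counting error of the mean read number alone would give 2.90% and 3.61%.

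Against wild type, Hcn3 rose 5.17-fold in Ncoa5+/-Tip30+/- livers (95% interval 3.67 to 7.27, limma adjusted p = 7.82e-05). It rose 2.24-fold in Ncoa5+/- livers (1.59 to 3.15, limma adjusted p = 0.0313) and 3.34-fold in Tip30+/- livers (2.38 to 4.70, limma adjusted p = 0.0099). In Tip30+/- livers limma called 2 of 15263 genes, Hcn3 higher and Htatip2 lower, while DESeq2 on the recovered reads called 18 higher and 25 lower, and fits that left out a liver called 1 to 8 genes. Among the genotypes, Ncoa5+/-Tip30+/- livers stood 2.31-fold above Ncoa5+/- (1.64 to 3.25, limma adjusted p = 0.174) and 1.55-fold above Tip30+/- (1.10 to 2.18, limma adjusted p = 0.125). Tip30+/- livers stood 1.49-fold above Ncoa5+/- (1.06 to 2.10, limma adjusted p = 0.206), with 3 of 4 Tip30+/- livers above every Ncoa5+/- liver. The first 5 of these 6 pairs had p = 0.0286 in a 2-sided exact permutation test, which is the lowest value possible with 70 arrangements, and the last had 0.0571. Ordered by mean the genotypes ran from Ncoa5+/-Tip30+/- through Tip30+/- and Ncoa5+/- to wild type. Neither step between neighbouring heterozygotes passed over all genes in the reported limma fit. The step between Tip30+/- and Ncoa5+/-Tip30+/- passed in 3 of 20 fits. The double heterozygote differed from the sum of both single log2 differences by -0.53 ± 0.33 (SE, 95% interval -1.23 to 0.16, limma adjusted p = 0.95).

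The Ncoa5+/-Tip30+/- call held when each of the 8 livers of that pair was left out. The Ncoa5+/- call held in 3 of 8 such fits, and ended without Ncoa5+/- 1, 2 or 3 or wild type 2 or 3 (limma adjusted p = 0.0638 to 0.105), and also when the 2 groups were fitted alone (limma adjusted p = 0.17). The Tip30+/- call held in 5 of 8, and ended without Tip30+/- 1 or 3 or wild type 2 (limma adjusted p = 0.0593 to 0.0669). Without the 4 livers low in Zhx2 all 3 calls stood, with log2 differences of 2.37, 1.56 and 1.74 (limma adjusted p = 0.000195, 0.0265 and 0.00474). On the recovered reads DESeq2 also called the double heterozygotes above Ncoa5+/- (log2 1.18, adjusted p = 0.000501) and above Tip30+/- (log2 0.67, adjusted p = 0.0492).

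**Figure D1:**
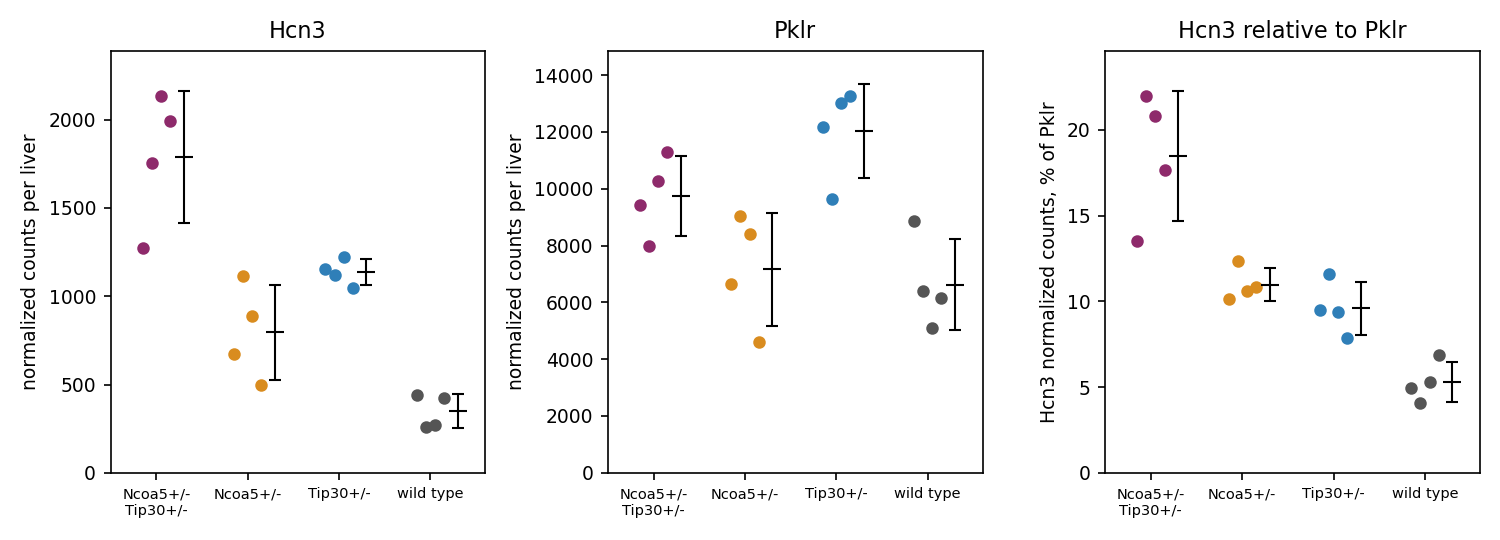
Normalized counts of Hcn3 (left) and Pklr (middle) and Hcn3 as a percentage of Pklr (right), by genotype. Points are single livers, 4 a genotype, and bars give the mean ± SD. For Hcn3 and for the percentage, every heterozygous liver lies above every wild-type liver. For Pklr, all 4 Tip30+/- livers, 3 of 4 Ncoa5+/-Tip30+/- livers and 1 Ncoa5+/- liver lie above the highest wild-type liver.

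Pklr was highest in Tip30+/- livers. Ncoa5+/-Tip30+/- livers held 9434, 7978, 10269 and 11284 normalized counts, and Tip30+/- livers 12169, 9648, 13021 and 13268. Ncoa5+/- livers held 6642, 9035, 8404 and 4605, and wild-type livers 8862, 6390, 5087 and 6150.5. Every Tip30+/- liver lay above every wild-type and every Ncoa5+/- liver, and 3 of 4 double heterozygotes lay above all wild-type livers. Tip30+/- livers stood 1.84-fold above wild type (1.37 to 2.46, limma adjusted p = 0.243, exact permutation p = 0.0286). That difference did not pass over all genes in the reported limma fit. It passed in DESeq2 (adjusted p = 0.0111) and without the 4 livers low in Zhx2 (log2 1.09, limma adjusted p = 0.0293). These were the only 2 of 19 fits, the reported one included, in which it passed. In the 8 fits that left out a liver its limma adjusted p was 0.245 to 0.793. Ncoa5+/-Tip30+/- livers stood 1.49-fold above wild type (1.11 to 1.99, limma adjusted p = 0.11). Among 19 fits, the reported one included, this passed once, when the Zhx2-low livers were left out (log2 0.79, limma adjusted p = 0.0425). Ncoa5+/- livers stood 1.07-fold above wild type (0.80 to 1.43, limma adjusted p = 0.928). Tip30+/- livers stood 1.72-fold above Ncoa5+/- (log2 0.78, 95% interval 0.36 to 1.20, limma adjusted p = 0.0502). This pair was under the threshold in 5 of 19 fits, the reported one counted among the 19. Between Ncoa5+/-Tip30+/- and Tip30+/- livers the fold was 0.81 (0.61 to 1.08, limma adjusted p = 0.371), and between Ncoa5+/-Tip30+/- and Ncoa5+/- it was 1.39 (1.04 to 1.86, limma adjusted p = 0.508).

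Hcn3 was also expressed as a percentage of Pklr in each liver, to show whether the 2 genes kept a fixed proportion. Such a percentage neither removes nor locates reads from the 711 exon bases that both genes share. Averaged over all livers, Pklr stood at 2747 normalized counts per kb of exon and Hcn3 at 245. The part of reads from the shared bases in the Hcn3 level was not tested. The percentage was 13.5, 22.0, 20.8 and 17.6% in Ncoa5+/-Tip30+/- livers and 10.1, 12.4, 10.6 and 10.8% in Ncoa5+/-. It was 9.49, 11.6, 9.40 and 7.89% in Tip30+/- and 4.96, 4.10, 5.32 and 6.88% in wild type. The double heterozygotes lay above all other livers and the wild-type livers below all others, while Ncoa5+/- and Tip30+/- overlapped. Against wild type, the ratio was 3.48-fold higher in Ncoa5+/-Tip30+/-, 2.10-fold in Ncoa5+/- and 1.82-fold in Tip30+/- livers, each with a 2-sided exact permutation p of 0.0286. The double heterozygotes exceeded Ncoa5+/- 1.66-fold and Tip30+/- 1.91-fold (exact permutation p = 0.0286 each), and Tip30+/- stood at 0.869 of Ncoa5+/- (exact permutation p = 0.2). With the log2 level of Pklr as a covariate, the Hcn3 difference from wild type was 1.88 in Ncoa5+/-Tip30+/- (limma adjusted p = 0.00058) and 1.08 in Ncoa5+/- livers (limma adjusted p = 0.00483). In Tip30+/- livers it was 0.997 and no longer passed (limma adjusted p = 0.566). Pklr itself stood 1.84-fold above wild type in Tip30+/- livers, without overlap. Genotype and Pklr level therefore cannot be told apart in that difference. In the same fit the double heterozygotes passed against Tip30+/- (log2 0.89, limma adjusted p = 0.0318), and Tip30+/- against Ncoa5+/- turned to -0.08 (limma adjusted p = 0.925).

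**Figure D2:**
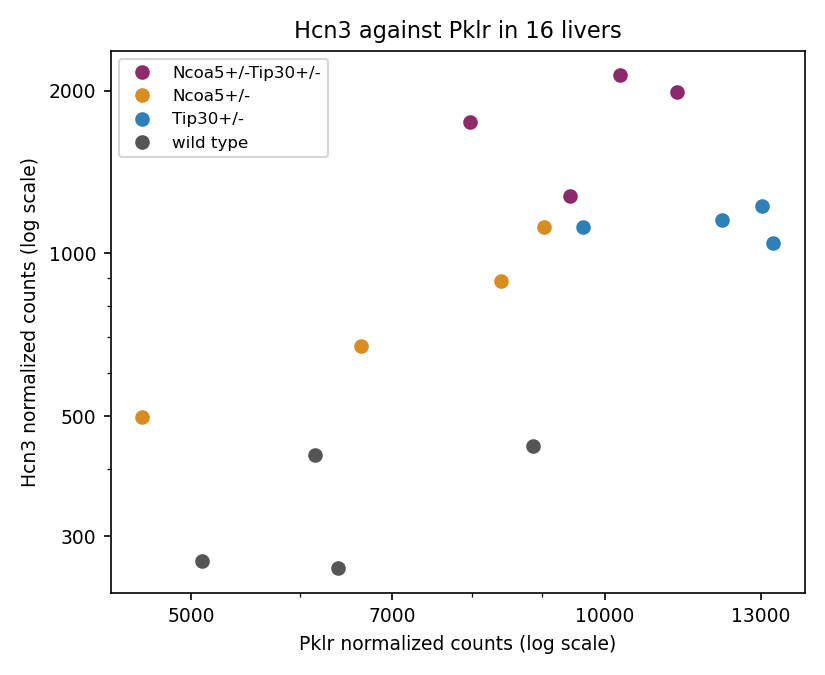
Hcn3 against Pklr in 16 livers, in normalized counts with log scales on both axes, coloured by genotype. A double heterozygote at 9434 of Pklr holds 1275 of Hcn3, a Tip30+/- liver at 9648 holds 1121, an Ncoa5+/- liver at 9035 holds 1117 and a wild-type liver at 8862 holds 440. The Tip30+/- livers reach the highest Pklr without the highest Hcn3.

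Whether Hcn3 and Pklr vary together within genotypes was also examined. After genotype means were subtracted from the log2 levels, Pearson's r over 16 livers was 0.726 (exact permutation p = 0.0148 over 331776 arrangements within genotypes) and Spearman's rho 0.671 (exact permutation p = 0.029). Adjusted over the 8 relations of Hcn3 with the other members, these became 0.118 and 0.232, so the relation did not pass. Without the 2 livers farthest in Pklr, Ncoa5+/- 4 and wild type 1, r was 0.565. Both genes were read from the same libraries and share exon bases, and the part of either in this relation was not tested. The other 7 relations had r between -0.264 and 0.388 and exact permutation p values of 0.222 to 0.991.

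Hcn2 was measured at 8 to 42 reads per liver, low enough for counting error to matter. It stood at 17.9, 19.8, 36.4 and 27.8 normalized counts in Ncoa5+/-Tip30+/- livers and 18.0, 27.5, 20.8 and 12.7 in Ncoa5+/-. Tip30+/- livers held 15.3, 25.1, 14.6 and 21.5, and wild-type livers 11.3, 8.41, 24.3 and 12.0. The groups overlapped in every pair. The fold against wild type was 1.82 in Ncoa5+/-Tip30+/- (1.10 to 3.03, limma adjusted p = 0.158), 1.43 in Ncoa5+/- (0.863 to 2.39, limma adjusted p = 0.676) and 1.41 in Tip30+/- livers (0.847 to 2.34, limma adjusted p = 0.799). Counting error alone would give a coefficient of variation of 19.5% in Ncoa5+/-Tip30+/- livers and 26.0% in wild type, beside the 33.3% and 50.4% observed. Hcn4 had 1 read in each of 2 livers (Ncoa5+/-Tip30+/- 4 and Ncoa5+/- 4) and 0 in the other 14. Both lie under the 3 counts that a count of 0 allows, so no fold is given. Among 5 genes known as partners of HCN channels 3 were tested and none passed against wild type. Nedd4l, a ubiquitin ligase, had the smallest p, with log2 -0.30 in Ncoa5+/-Tip30+/- livers (limma adjusted p = 0.141) and -0.36 in Tip30+/- livers (limma adjusted p = 0.552).

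Clk2, next to Hcn3 on the side away from Pklr, stood at 604, 580, 463 and 589 normalized counts in Ncoa5+/-Tip30+/- livers. Ncoa5+/- livers held 375, 503, 382 and 396, Tip30+/- livers 512, 449, 371 and 353, and wild-type livers 330, 504, 484 and 360. In 3 of 4 double heterozygotes it lay above all other livers, and the remaining groups overlapped. The double heterozygotes stood 1.35-fold above wild type (1.07 to 1.70, limma adjusted p = 0.129), 1.35-fold above Ncoa5+/- (limma adjusted p = 0.477) and 1.33-fold above Tip30+/- (limma adjusted p = 0.133), and none of these passed. Ncoa5+/- and Tip30+/- livers stood at 0.997 (0.791 to 1.26) and 1.01 (0.802 to 1.27) of wild type by limma, and both directions turned under other settings. Of 12 other CLK kinases and SR proteins 1 passed in Ncoa5+/-Tip30+/- livers against wild type, beside 2.67% of all tested genes. It was Srsf3, a splicing factor, which fell (log2 -0.53, limma adjusted p = 0.0368). That call was lost in 6 of the 8 fits that left out a liver and without the livers low in Zhx2.

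Scamp3 was the steadiest member. It held 1054, 941, 1122 and 902 normalized counts in Ncoa5+/-Tip30+/- livers, 1184, 1304, 941 and 912 in Ncoa5+/-, 1016, 1024, 879 and 1046 in Tip30+/- and 1160, 1018, 1046 and 1048 in wild type. All groups overlapped. The 95% intervals of its fold against wild type were 0.791 to 1.11 in Ncoa5+/-Tip30+/-, 0.848 to 1.19 in Ncoa5+/- and 0.781 to 1.10 in Tip30+/- livers.

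Mtx1 held 757, 883, 757 and 666 normalized counts in Ncoa5+/-Tip30+/- livers, against 657, 617, 632 and 610 in Tip30+/- livers, so every double heterozygote lay above every Tip30+/- liver. Ncoa5+/- livers held 694, 758, 538 and 601 and wild-type livers 579, 679, 827 and 694, and both overlapped all other groups. The double heterozygotes stood 1.21-fold above Tip30+/- (1.01 to 1.45, limma adjusted p = 0.192, exact permutation p = 0.0286), which did not pass. Against wild type the folds were 1.11 in Ncoa5+/-Tip30+/-, 0.932 in Ncoa5+/- and 0.912 in Tip30+/- livers. Of 7 other metaxins and proteins of mitochondrial sorting, none passed against wild type by limma, and Immt, an organizer of the inner membrane, had log2 -0.28 in Ncoa5+/-Tip30+/- livers (limma adjusted p = 0.0759).

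Thbs3 was read at 6 to 24 reads per liver. It stood at 19.1, 22.6, 19.9 and 23.7 normalized counts in Ncoa5+/-Tip30+/- livers, against 6.14, 18.9, 14.0 and 12.0 in wild type, without overlap. Ncoa5+/- livers held 11.3, 17.3, 18.7 and 20.5, and Tip30+/- livers 11.9, 12.1, 21.4 and 12.3, and both overlapped wild type. The double heterozygotes stood 1.72-fold above wild type (1.06 to 2.78, limma adjusted p = 0.176), which did not pass. Their coefficient of variation, 10.3%, was below the 21.6% that counting error alone gives, and the highest wild-type liver lay at 18.9 beside the lowest double heterozygote at 19.1.

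Fdps had a coefficient of variation of 85.5% among Ncoa5+/- livers, the widest of any member in any genotype. It held 277, 278, 181 and 139 normalized counts in Ncoa5+/-Tip30+/- livers, 121, 457, 146 and 82.8 in Ncoa5+/-, 370, 186, 175 and 219 in Tip30+/- and 361, 417, 197 and 206 in wild type. The lowest and the highest of all 16 livers were both Ncoa5+/-, and every pair of groups overlapped. The fold against wild type was 0.752 in Ncoa5+/-Tip30+/- (0.385 to 1.47), 0.577 in Ncoa5+/- (0.296 to 1.13) and 0.812 in Tip30+/- livers (0.416 to 1.58), and limma adjusted p values were 0.626, 0.594 and 0.907. Without the 4 livers low in Zhx2 all 3 log2 differences turned positive, to 0.06, 0.36 and 0.17. From a list of 22 other genes of sterol synthesis and uptake, which had a median log2 difference of -0.40 in Ncoa5+/-Tip30+/- livers against wild type (-0.01 over all tested genes), 1 is described. Srebf2, the factor that drives the pathway, fell by 0.55 on the log2 scale (limma adjusted p = 0.0191), with 2676, 2129, 2527 and 2389 normalized counts in Ncoa5+/-Tip30+/- livers against 3697, 3345, 3595 and 3513 in wild type. That call ended without the livers low in Zhx2 (limma adjusted p = 0.0883), and without Ncoa5+/-Tip30+/- 2 or wild type 1 (limma adjusted p = 0.0808 and 0.0682).

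Rusc1 was lowest in Tip30+/- livers. It held 41.7, 49.9, 52.0 and 46.4 normalized counts in Ncoa5+/-Tip30+/- livers, 46.2, 50.9, 35.4 and 33.1 in Ncoa5+/-, 25.6, 22.1, 39.9 and 28.7 in Tip30+/- and 43.0, 61.0, 57.1 and 31.8 in wild type. Every double heterozygote lay above every Tip30+/- liver, and the other groups overlapped. Tip30+/- livers stood at 0.615 of wild type (0.43 to 0.88, limma adjusted p = 0.596), and Ncoa5+/-Tip30+/- livers at 1.01 (0.707 to 1.45, limma adjusted p = 0.977). The double heterozygotes stood 1.65-fold above Tip30+/- (1.15 to 2.35, limma adjusted p = 0.101, exact permutation p = 0.0286), and neither difference passed.

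**Figure D3:**
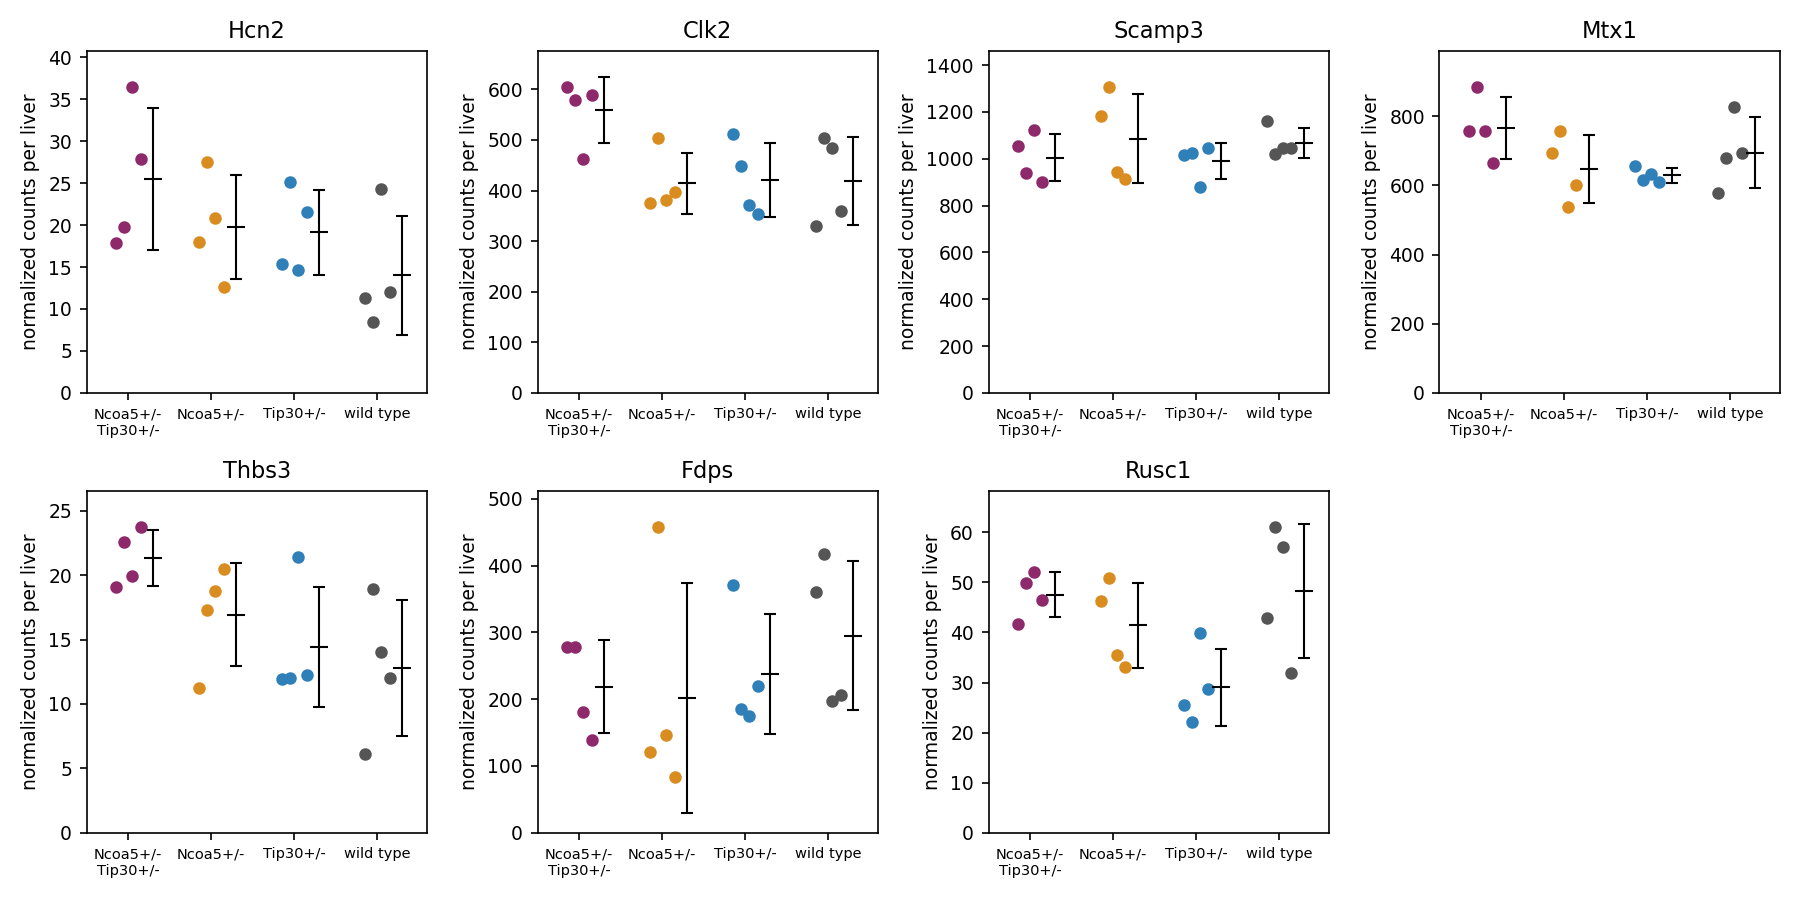
Normalized counts of the other 7 members by genotype, each panel with its own axis starting at 0. Points are single livers, 4 a genotype, and bars give the mean ± SD. Thbs3 is without overlap between Ncoa5+/-Tip30+/- and wild type, Rusc1 and Mtx1 between Ncoa5+/-Tip30+/- and Tip30+/-, and Fdps is widest in Ncoa5+/- livers.

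Counts over the members were read beside the same counts over all tested genes. In Ncoa5+/-Tip30+/- against wild type 1 of 9 members was called (2.67% of all tested genes), and 2 of 9, Hcn3 and Thbs3, had groups that did not overlap (10.7% of all tested genes). In Ncoa5+/- against wild type 1 was called (0.557%) and 1 did not overlap (5.67%), Hcn3 in both cases. In Tip30+/- against wild type 1 was called (0.0131%), again Hcn3, and Hcn3 and Pklr did not overlap (4.44%). In the reported limma fit no member was called between heterozygotes, though some other fits called Hcn3 or Pklr. There, 1 member did not overlap between Ncoa5+/-Tip30+/- and Ncoa5+/- (Hcn3, background 4.8%), 3 between Ncoa5+/-Tip30+/- and Tip30+/- (Hcn3, Rusc1 and Mtx1, background 16.2%) and 1 between Tip30+/- and Ncoa5+/- (Pklr, background 11.9%). The called shares of all tested genes in these 3 pairs were 0.0197%, 3.07% and 2.16%. In the interaction no gene passed in limma or edgeR, 1 passed in DESeq2, and 650 (4.26%) had an unadjusted limma p under 0.05. Rusc1 (log2 0.91) and Mtx1 (log2 0.38) were among these 650, with a limma adjusted p of 0.95 each.

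**Figure D4:**
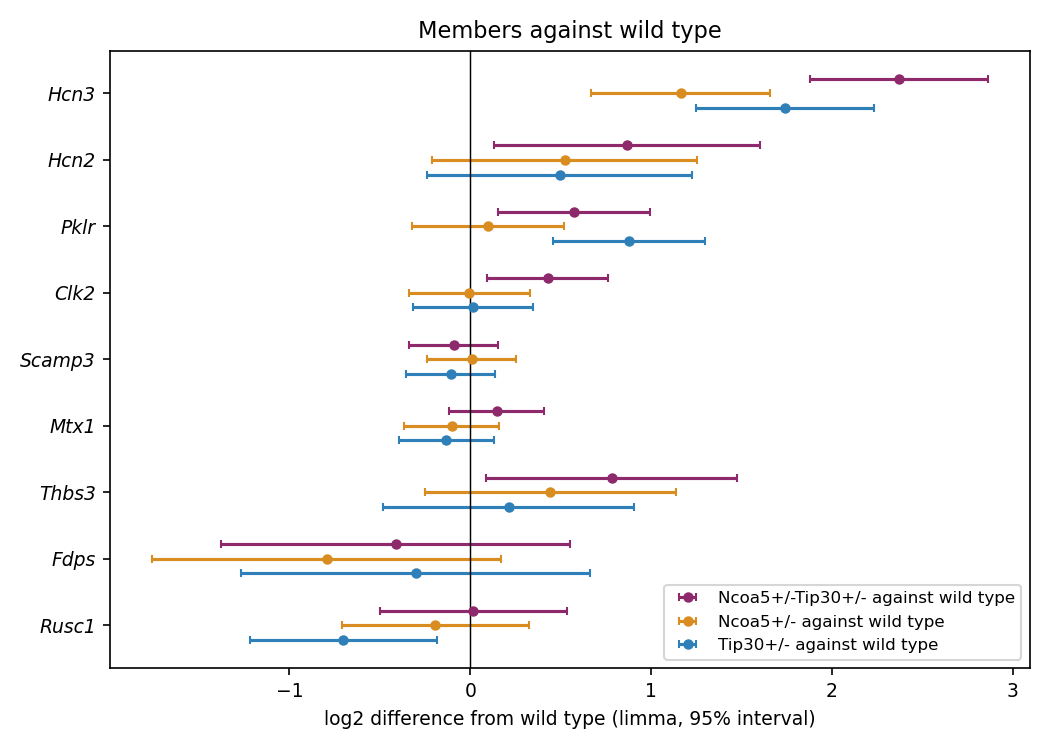
Log2 difference from wild type of each member in Ncoa5+/-Tip30+/-, Ncoa5+/- and Tip30+/- livers, with 95% intervals from limma (n = 4 livers a genotype). Hcn3 has the largest difference in each genotype, and the widest intervals are those of Fdps.

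The table holds 56 genes within 500 kb of Hcn3, counting Hcn3 itself and the 7 other members on chromosome 3. Apart from Hcn3, 39 of them were tested, those 7 members included. In Ncoa5+/-Tip30+/- against wild type 2 of these 39 passed, beside 2.67% of all tested genes. The 2 groups did not overlap in 5 of the 39 (12.8%), beside 10.7% of all tested genes. The median log2 difference of the 39 was 0.08, against -0.01 over all tested genes. Fam189b, whose start lies 22.9 kb from that of Hcn3, rose 2.32-fold in Ncoa5+/-Tip30+/- livers against wild type (limma adjusted p = 0.0137). It held 48.8, 81.8, 84.1 and 56.7 normalized counts in Ncoa5+/-Tip30+/- livers, against 24.5, 24.2, 41.2 and 24.9 in wild type, without overlap. It also rose 1.90-fold against Tip30+/- livers, which held 40.9, 29.1, 34.0 and 33.8 (limma adjusted p = 0.0437). In that pair 1 of the 39 passed, beside 3.07% of all tested genes. The gene 2810403A07Rik, farther out on the Pklr side, rose 1.44-fold (limma adjusted p = 0.0173), with 897, 774, 860 and 823 normalized counts in Ncoa5+/-Tip30+/- livers against 523, 671, 644 and 506 in wild type. With the 4 Zhx2-low livers left out, the Fam189b calls (limma adjusted p = 0.122 against wild type and 0.0562 against Tip30+/-) and the 2810403A07Rik call (0.08) ended. That fit kept only wild type 3 and 4 of the wild-type livers. The Fam189b call against wild type also ended without Ncoa5+/-Tip30+/- 2 or wild type 1, and the 2810403A07Rik call without wild type 1 or 4. With the 2 groups fitted alone both of these calls ended as well (limma adjusted p = 0.0754 and 0.089). The Fam189b call against Tip30+/- held in 2 of the 8 fits that left out a liver, and ended without Ncoa5+/-Tip30+/- 2 or 3 or any 1 of the Tip30+/- livers (limma adjusted p = 0.0614 to 0.16). It also ended with no filter on low values (limma adjusted p = 0.0726) and, at the threshold itself, with the 2 groups alone. In Ncoa5+/- and Tip30+/- livers against wild type the medians of the 39 were 0.01 and -0.07.

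**Figure D5:**
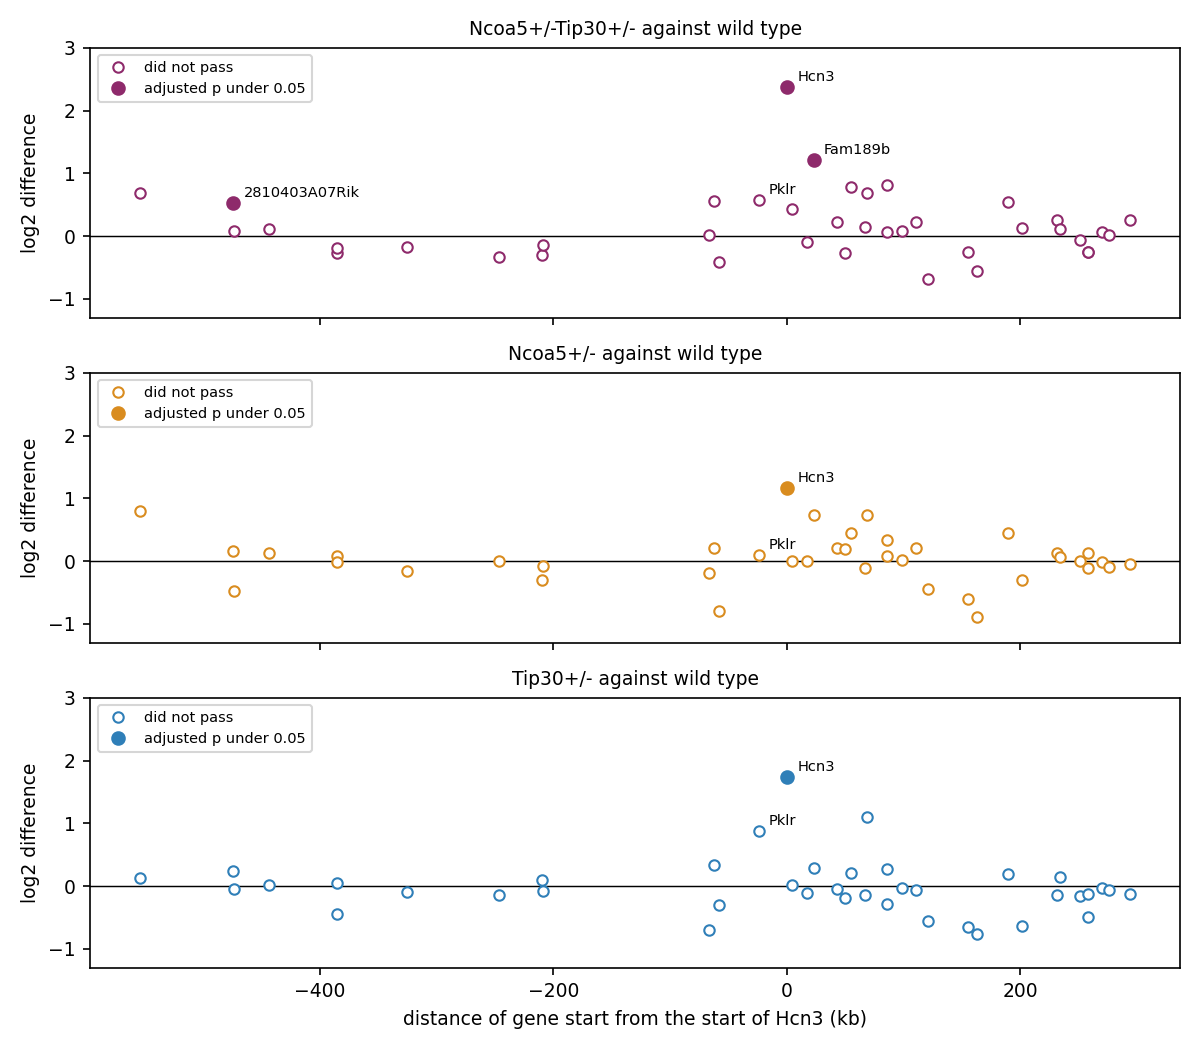
Log2 difference from wild type of each tested gene within 500 kb of Hcn3 against the distance of its start from that of Hcn3, in kb, with a panel per genotype. Filled points passed at a limma adjusted p under 0.05. Hcn3 lies highest in every panel. The next highest are Fam189b at 1.21 in Ncoa5+/-Tip30+/-, Arhgef2 at 0.80 in Ncoa5+/- and Muc1 at 1.09 in Tip30+/- livers, and of these Fam189b alone passed.

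Genes that share a pathway with Pklr were read from lists. Of 17 ChREBP and lipogenic genes apart from Pklr, 14 lay above 0 in Ncoa5+/-Tip30+/- livers against wild type, with a median log2 difference of 0.51. In this pair 1 of the 17 rose and passed, beside 2.67% of all tested genes called. The gene was Tkfc, a fructose-pathway kinase (log2 0.65, limma adjusted p = 0.0489), with 22077, 19883, 21983 and 15510 normalized counts in Ncoa5+/-Tip30+/- livers against 15478, 14144, 10422 and 10910 in wild type. That call held in 1 of the 8 fits that left out a liver. In Tip30+/- livers none passed, 15 of 17 lay above 0 and the median was 0.23, and Tkfc (log2 0.41, limma adjusted p = 0.635) and Khk, the fructokinase (log2 0.37, limma adjusted p = 0.68), had the smallest p. In Ncoa5+/- livers none passed, 9 of 17 lay above 0 and the median was 0.01. Over all tested genes the medians were -0.01, 0.01 and -0.01 in Ncoa5+/-Tip30+/-, Tip30+/- and Ncoa5+/- livers. Of 14 other glycolysis genes none passed against wild type, with medians of 0.19, 0.08 and -0.01 in the same order. Gpi1 (log2 0.44, limma adjusted p = 0.144) and Pfkl (log2 -0.31, limma adjusted p = 0.175), enzymes of early glycolysis, had the smallest p in Ncoa5+/-Tip30+/- livers. Among the relatives of Scamp3, Scamp5 fell in Tip30+/- against Ncoa5+/- livers (log2 -0.61, limma adjusted p = 0.0136), a call that ended without Ncoa5+/- 4 (limma adjusted p = 0.0572) and without the livers low in Zhx2 (0.252). The related thrombospondins (2 tested) and Rusc2 were not called in any pair by limma.

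The gene whose log2 level over 16 livers was most like that of Hcn3, among 11879 genes with a mean of at least 50, was Hhipl1 (Pearson's r = 0.862). It was followed by Cyp46a1 (0.856), Fgd6 (0.825), Wwtr1 (0.824) and Synm (0.804). Hhipl1 averaged 143 normalized counts in Ncoa5+/-Tip30+/- livers, 96.3 in Ncoa5+/-, 117 in Tip30+/- and 59.8 in wild type. This is the order of genotypes of Hcn3, which picking a gene by r over the same 16 livers favours. Wnt5a, a secreted Wnt ligand, was the most opposite (r = -0.919), at 94.0 in Ncoa5+/-Tip30+/-, 146 in Ncoa5+/-, 128 in Tip30+/- and 229 normalized counts in wild type, followed by Champ1 (-0.904) and Pigh (-0.855). Pklr ranked 37 among the genes most like Hcn3, and Hcn3 ranked 24 among those most like Pklr, with r = 0.726. The genes most like Pklr were Synm (0.894), Ugt1a5 (0.886), Gbe1 (0.840), Mr1 (0.817) and Mul1 (0.795). After genotype means were subtracted, Eepd1 was most like Hcn3 (r = 0.888), ahead of Svil (0.807), Nkiras2 (0.803), Depdc5 (0.800) and Myef2 (0.789), and Pklr ranked 18. These correlations describe 16 livers that share genotype and library, and ranks were taken over many genes.

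Markers of other cells were read beside Hcn3, since HCN channels are best known outside the liver. The 5 neuron genes summed to 303 to 555 normalized counts in Ncoa5+/-Tip30+/- livers, 342 to 683 in Ncoa5+/-, 458 to 822 in Tip30+/- and 355 to 814 in wild type, without a call. Most of this was Syt1, while Snap25 reached at most 5.84 and Gap43 at most 4.68 normalized counts in any liver. Rbfox3 held 12.6 to 59.3 and Syp 11.3 to 28.2 normalized counts over all livers. Of 5 heart muscle genes 4 were in the table, and they summed to 11.3 to 76.2 in Ncoa5+/-Tip30+/-, 14.3 to 19.5 in Ncoa5+/-, 17.1 to 50.6 in Tip30+/- and 8.18 to 21.5 in wild type. Myh6 stood at 2.25 or below, Actc1 reached at most 5.95 and Myl7 at most 10.4. Tnnt2, the only 1 tested, held 0.941 to 69.1 in Ncoa5+/-Tip30+/- and 5.63 to 10.4 in Ncoa5+/- livers. It held 10.2 to 41.8 in Tip30+/- and 1.02 to 15.9 in wild type, and it was not called against wild type by limma. The 5 lymphocyte genes summed to 124 to 230 in Ncoa5+/-Tip30+/-, 164 to 220 in Ncoa5+/-, 55.3 to 113 in Tip30+/- and 40.4 to 138 normalized counts in wild type. Of them, by limma, Cd8a passed in Ncoa5+/-Tip30+/- livers against wild type, beside 2.67% of all tested genes called. In Ncoa5+/- livers Cd8a and Nkg7 passed, beside 0.557%. The share of 2.67% also applies to the Spp1 and Alas2 calls in Ncoa5+/-Tip30+/- livers below. The 5 cholangiocyte genes summed to 1061 to 2080 in Ncoa5+/-Tip30+/-, 1097 to 1594 in Ncoa5+/-, 663 to 1659 in Tip30+/- and 593 to 913 in wild type, and Spp1 passed in Ncoa5+/-Tip30+/- livers. Of 4 red cell genes in the table, a lineage that also uses Pklr, Alas2 passed in Ncoa5+/-Tip30+/- livers, and the sums were 19120 to 67379 in Ncoa5+/-Tip30+/-, 28571 to 32039 in Ncoa5+/-, 11565 to 31138 in Tip30+/- and 11674 to 38427 in wild type. The macrophage list summed to 4020 to 7452 in Ncoa5+/-Tip30+/-, 4941 to 9734 in Ncoa5+/-, 4628 to 5931 in Tip30+/- and 2255 to 5726 in wild type, and neither it nor the stellate, endothelial and pancreatic lists held a gene called against wild type by limma. The part of these cells in the Hcn3 and Pklr levels was not tested.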

How the data were processed

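Poly(A) RNA from a frozen piece of liver was sequenced, 1 library a mouse, from 16 separately tagged mice. The authors trimmed reads with Trimmomatic 0.36, aligned them to GRCm38 with STAR 2.6.0c and normalized with DESeq2 1.28.1, per the submitters' processing notes. The deposited table holds signal values, read counts divided by a size factor (0.840 to 1.17 as read from the values), for 30199 genes. The sources used here do not give the counting program, annotation or strand setting. All values (100%) were whole multiples of 1 step per library, to a tolerance of 1e-04, which recovered 24740706 to 37939978 reads per library.

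Genes with a mean of at least 10 (15263) were tested with limma 3.58.1 (trend, robust) on log2(value + 1), 4 group means in 1 model, 2-sided, with Benjamini-Hochberg adjustment over all tested genes and a threshold of 0.05. Folds are powers of 2 of differences on that scale, which understates low genes. Exact permutation tests compare mean log2 values of 2 groups. Intervals are 95%, and counting errors cover counting only. The limma fit was run on simulated reads with changes placed in Ncoa5+/-Tip30+/- libraries alone, in genes with a mean of at least 50. That run covered the comparison with wild type and not the other pairs, and its outcome is not given here. Alternatives were DESeq2 1.42.0 and edgeR 4.0.16 on recovered reads, TMM scaling, a pseudocount of 0.5 or 5, a filter at a mean of 50 or none, a mouse tag covariate (below 4300 or not), Pklr as a covariate, 2 groups alone, each liver left out, and, chosen after seeing the data, leaving out the 4 livers low in Zhx2 (under 50).

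The members and lists were chosen with earlier results of these data known. Named genes are the members, passing genes within 500 kb, up to 4 passing genes per list and pair (otherwise up to 2, here limited after seeing values to an unadjusted p under 0.05), and the genes most like Hcn3 or Pklr in r. Some genes that this rule names are not reported here.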

Additional observations from a re-analysis of the deposited data

Results flagged for a closer look

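Of 36 groups of 4 livers examined (9 members in 4 genotypes), 3 held a liver far from the other 3, and chance alone flags about 1 in 20 groups. Clk2 in Ncoa5+/- 2 stood at 503 normalized counts, above 375 to 396 in the other Ncoa5+/- livers. Fdps in the same liver stood at 457, above 82.8 to 146 in the others. Thbs3 in Tip30+/- 3 stood at 21.4, above 11.9 to 12.3 in the other Tip30+/- livers.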

How the results depend on the processing

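No paired analysis was possible because each mouse has its own tag and the labels share no replicate numbers between genotypes. The counts of fits that follow include the reported limma fit beside its alternatives. Hcn3 in Ncoa5+/-Tip30+/- against wild type passed in all 20 fits (adjusted p 4.12e-21 to 0.000624). In Ncoa5+/- against wild type it passed in 14 of 20 (0.000102 to 0.17) and in Tip30+/- in 16 of 20 (1.22e-09 to 0.566). Causes of the changes below were not tested. Hcn2, Thbs3 and Rusc1 had 6 to 61 reads a liver, which gives a counting error of 14.2 to 27.5% per genotype, against at most 7.16% for the other members.

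With DESeq2 the genes called numbered 1044, 257 and 43 in Ncoa5+/-Tip30+/-, Ncoa5+/- and Tip30+/- against wild type (407, 85 and 2 in limma), 32 in Ncoa5+/-Tip30+/- against Ncoa5+/- (3), 1118 against Tip30+/- (469), 813 in Tip30+/- against Ncoa5+/- (330) and 1 in the interaction (0). Hcn3 passed at 1.18 in Ncoa5+/-Tip30+/- against Ncoa5+/- and 0.67 against Tip30+/-. With a mouse tag covariate 697 genes were called in Ncoa5+/-Tip30+/- against wild type, 1344 against Tip30+/- and 749 in Tip30+/- against Ncoa5+/-. With the 2 groups alone 107 were called in Ncoa5+/-Tip30+/- and 56 in Ncoa5+/- against wild type, and 9 in Ncoa5+/-Tip30+/- against Ncoa5+/-. There Hcn3 kept 1.16 in Ncoa5+/- but no longer passed, and its 0.63 in Ncoa5+/-Tip30+/- against Tip30+/- passed. With Pklr as a covariate Hcn3 stood at 0.997 in Tip30+/- against wild type (no longer passing), 0.89 in Ncoa5+/-Tip30+/- against Tip30+/- (passing) and -0.083 in Tip30+/- against Ncoa5+/- (turned). Without the 4 livers low in Zhx2, chosen after seeing the data, 121, 29 and 6 genes were called in Ncoa5+/-Tip30+/-, Ncoa5+/- and Tip30+/- against wild type, 1 in Ncoa5+/-Tip30+/- against Ncoa5+/- and 34 in Tip30+/- against Ncoa5+/-.

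Small log2 differences turned. In edgeR these were Rusc1 in Ncoa5+/-Tip30+/- (-0.0013) and Clk2 in Tip30+/- (-0.0075) against wild type. With the tag covariate they were Clk2 in Tip30+/- against wild type (-0.022) and against Ncoa5+/- (-0.017), Fdps in Ncoa5+/-Tip30+/- against Tip30+/- (0.082) and Hcn2 in Tip30+/- against Ncoa5+/- (0.056). Without the livers low in Zhx2 Fdps turned to 0.062, 0.36 and 0.17 against wild type, -0.30 in Ncoa5+/-Tip30+/- and -0.19 in Tip30+/- against Ncoa5+/-, and -0.47 in the interaction. Clk2 turned to 0.072 in Ncoa5+/- and -0.0016 in Tip30+/- against wild type and -0.073 in Tip30+/- against Ncoa5+/-. Ncoa5 turned to 0.0045 in Tip30+/- against wild type and Scamp3 to -0.064 in the interaction.

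Leaving out each liver gave 88 to 846 genes called in Ncoa5+/-Tip30+/-, 45 to 88 in Ncoa5+/- and 1 to 8 in Tip30+/- against wild type, 1 to 2 in Ncoa5+/-Tip30+/- against Ncoa5+/-, 107 to 764 against Tip30+/- and 149 to 481 in Tip30+/- against Ncoa5+/-. Hcn3 ranged from 0.98 to 1.37 in Ncoa5+/- and 1.62 to 1.87 in Tip30+/- against wild type. Ranges that crossed 0 against wild type were Clk2 (-0.11 to 0.091 in Ncoa5+/-, -0.092 to 0.11 in Tip30+/-), Pklr (-0.029 to 0.29) and Scamp3 (-0.085 to 0.087) in Ncoa5+/-, Rusc1 in Ncoa5+/-Tip30+/- (-0.16 to 0.14), and Thbs3 (-0.073 to 0.42) and Ncoa5 (-0.11 to 0.0013) in Tip30+/-. In Tip30+/- against Ncoa5+/- they were Clk2 (-0.079 to 0.12), Hcn2 (-0.21 to 0.14) and Mtx1 (-0.12 to 0.049), and in Ncoa5+/-Tip30+/- against Tip30+/- Fdps (-0.24 to 0.13) and Scamp3 (-0.039 to 0.068). In the interaction they were Hcn2 (-0.43 to 0.043), Scamp3 (-0.069 to 0.10) and Thbs3 (-0.080 to 0.41).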
